A study of Mus musculus with 59 samples.

Results

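Induced pluripotent stem cell (iPSC) clones made from mouse blood cells were set against embryonic stem cells (ESC). The blood-derived clones are all 31 iPSC whose labelled origin is HSCs (11 clones), GMPs (11 clones) or Granulocytes (9 clones), and the ESC are the 4 clones ESC-1 to ESC-4 labelled as KH2 ESC, targeted, so the comparison uses 35 of the 59 arrays of the series. HSCs are the stem cells of blood, GMPs the progenitors of granulocytes and monocytes, and granulocytes mature white blood cells. The animals named in the labels are mouse 1 (11 clones), mouse 2 (11 clones) and chimera 2 (9 clones), and each animal gave clones of all 3 blood origins.

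Per the series' design text, the donor mice were chimeras made with ESC holding an inducible cassette for myc, Klf4, Oct4 and Sox2. The series title calls the ESC and iPSC genetically matched, but the labels do not say whether ESC-1 to ESC-4 hold that cassette. They name neither its promoter nor its state when RNA was taken, and no strain, age or sex of the animals. All cells were grown on irradiated embryonic fibroblasts (MEFs) in serum and LIF, and were preplated to remove those feeder cells before total RNA was extracted. Further iPSC of the series serve as points of comparison: 11 clones from PFs or TTFs of the same 3 animals and 6 clones from MEFs of chimera 1. The PF-derived clones are of mouse 1 (2 clones) and mouse 2 (3 clones), and the TTF-derived clones are all of chimera 2 (6 clones). Differences between PF and TTF origin therefore cannot be told apart from animal. PFs and TTFs are written as the labels give them.

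Reprogramming with these 4 factors restores the network of Oct4 (gene Pou5f1), Sox2 and Nanog, which holds mouse ESC in a self-renewing state under LIF and Stat3 signalling. ESC in serum vary between a naive state and one primed for the epiblast, and FGF signalling through ERK drives the latter. Imprinted genes, which are read from only the maternal or only the paternal chromosome, keep their DNA methylation through normal development and are known to be disturbed in some pluripotent lines. Immediate early genes encode transcription factors and feedback regulators whose RNA appears within minutes of growth factor or stress signals and decays fast.

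Values are log2 signals with each array's mean near 0, 1 probe set per gene, for 11807 genes. A difference is the mean of the 3 blood-origin means minus the ESC mean, with its standard error (SE) from limma, and a gene is called where its p, adjusted over all genes, is under 0.05. Every p below treats a clone as the unit, although clones of 1 animal share their donor and the 4 ESC, numbered as clones, have 1 labelled origin. The labels do not say which lines were separate cultures, ESC-2 and ESC-3 included, so these p-values measure only the spread between the arrays. In RNA from whole cultures, fewer cells with a transcript and less of it per cell cannot be told apart.

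The pluripotency markers had high values on both sides. Pou5f1 was at 4.50 to 5.04 in the 31 clones (median 4.58), against 4.71, 4.87, 4.87 and 4.90 in ESC. Sox2 was at 4.05 to 4.52 in the clones (median 4.32), against 4.27, 4.38, 4.36 and 4.54 in ESC, and Nanog at 4.63 to 5.15 (median 4.95), against 4.91, 5.10, 5.12 and 5.24 in ESC. The differences were -0.16, -0.06 and -0.14 (adjusted p 0.262, 0.544 and 0.144). Clones overlapped with ESC for Sox2 and Nanog. For Pou5f1 22 clones lay below the lowest ESC and 9 above the highest, so none lay within the ESC range. Within chimera 2 Pou5f1 was 0.13 above the ESC mean, while the difference was -0.27 within mouse 1 and -0.28 within mouse 2. Esrrb was called lower (-0.27, adjusted p 0.0417), but not with animal as a random block (adjusted p 0.269). It was at 4.11 to 4.87 in the clones, against 4.59 to 4.95 in ESC. Zfp42 was at 3.96 to 4.59, against 4.22 to 4.50 in ESC, and was not called (adjusted p 0.783). The blood markers Ptprc, Spi1, Mpo, Itgam, S100a8 and S100a9 were low on both sides. Others of the same set had higher values on both sides. Coro1a was at 0.82 to 1.48 in the clones, against 0.93 to 1.16 in ESC. Laptm5 was at -0.41 to 0.49, against 0.16 to 0.57 in ESC, and Lyz2 at -2.33 to -0.48, against -3.92 to -0.19 in ESC. Mpo, of granule-forming myeloid cells, lay at -3.52 to -2.95 in the clones, against -3.49 to -3.19 in ESC, and Itgam, a myeloid surface protein, at -3.75 to -3.16, against -3.55 to -3.31 in ESC. Of 31 measured blood genes 1 was higher (Tal1, 0.45) and 1 lower (Laptm5, -0.30), beside 13.3% and 9.89% of all genes. Neither of them was called with animal as a random block (adjusted p 0.0942 and 0.274). Tal1 had low values, at -2.54 to -1.83 in the clones, against -2.85 to -2.34 in ESC. The mean over the list ran from -2.31 to -2.12 in the clones and from -2.38 to -2.11 in ESC.

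Some arrays stood apart. ESC-2 and ESC-3 were the closest pair of the 35 arrays, with an SD of their difference over genes of 0.133, while ESC-1 differed from the other ESC by 0.425 to 0.431. Different blood-derived clones came as close as 0.145, with a median of 0.282. The mean of 25 fibroblast and feeder genes was 0.79 to 2.36 in the clones (median 1.15, highest in iPSC-7, an HSC-derived clone of mouse 1), against 1.63 in ESC-1, 0.93 in ESC-2, 0.89 in ESC-3 and 0.46 in ESC-4. By animal that mean was 1.69 in clones of mouse 1, 1.13 in mouse 2 and 0.98 in chimera 2.

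Blood-derived iPSC and ESC differed over a wide set of genes, mostly by less than 2-fold. Of 11807 genes, 2736 (23.2%) were called, 1568 higher in the clones (13.3%) and 1168 lower (9.89%). HSC-derived clones alone differed from ESC in 2220 genes, GMP-derived in 2462 and granulocyte-derived in 1932. In all 3 origins 1600 genes (13.6%) were called the same way, 937 higher (7.94%) with a median difference of 0.35 and 663 lower (5.62%) with a median of -0.46, beside a median of 0.03 over all genes. The 3 origin comparisons use the same 4 ESC, so a deviation of 1 ESC clone enters all of them. Among the 1600 genes, 76 differed by 2-fold or more, and 55 of those were lower in the clones. All 31 clones lay above the highest ESC for 119 genes (1.01%) and below the lowest ESC for 101 genes (0.855%).

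The counts depended on which arrays were used and on how clones of an animal were treated. Without ESC-2 the shared genes numbered 820, without ESC-3 766, without ESC-1 2243 and without ESC-4 1462. With ESC-2 and ESC-3 averaged into 1 sample, 770 genes were shared and 1597 were called in all. With animal as a random block 834 genes were called, 4.04% of all genes as higher and 3.02% as lower, and 446 were shared, and with 1 mean per animal against the 4 ESC only Meg3 and Rian were called (smallest adjusted p 0.000362), beside 2024 genes at an unadjusted p under 0.05. Clones of chimera 2 alone gave 1333 calls and 215 shared genes, against 3811 and 1861 for mouse 1 alone and 3839 and 1886 for mouse 2 alone.

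No gene passed the test among blood origins, while 6528 genes (55.3%) did among animals. Among the 31 clones, with animal as a term, limma's F test called 0 genes among the 3 origins, with 739 genes at an unadjusted p under 0.05. The smallest adjusted p was 0.0889, and it was 0.497 without the animal term. Of the 1600 shared genes 1161 differed among animals. Genes shared as higher had a median difference of 0.40 in mouse 1, 0.36 in mouse 2 and 0.26 in chimera 2, and genes shared as lower had medians of -0.52, -0.48 and -0.32. Shared genes lay on every chromosome examined, at 10.2% to 16.1% of the genes measured on chromosomes 1 to 19 and X.

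**Figure D1:**
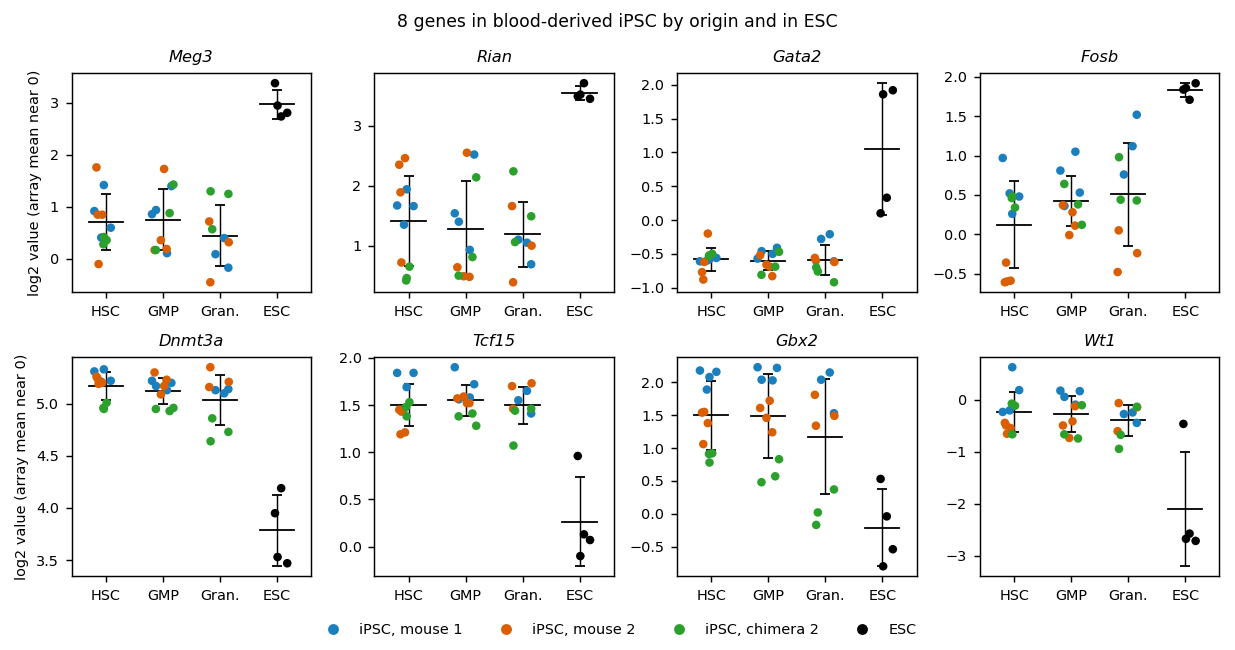
Log2 values of 8 genes in single arrays (points, coloured by animal) for HSC-, GMP- and granulocyte-derived iPSC and for ESC, with the group mean and SD (bars). Meg3, Rian, Gata2 and Fosb lie below every ESC in all 31 clones, Dnmt3a and Tcf15 lie above every ESC, and Gbx2 and Wt1 overlap with ESC at ESC-1 or in chimera 2.

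The largest loss in blood-derived iPSC was in the maternally expressed noncoding RNAs of the imprinted Dlk1-Dio3 region on chromosome 12. Meg3 was at -0.10 to 1.76 in HSC-derived clones, 0.11 to 1.73 in GMP-derived and -0.45 to 1.30 in granulocyte-derived clones, against 3.38, 2.81, 2.95 and 2.74 in ESC. Every clone was below every ESC, by a difference of -2.33 (SE 0.28, adjusted p 3.57e-07), or 5.04-fold, and all 4 probe sets of Meg3 were called lower. Rian, a neighbouring transcript that hosts small nucleolar RNAs, was at 0.39 to 2.55 in the clones (median 1.10), against 3.49, 3.45, 3.52 and 3.71 in ESC. Again no clone reached an ESC, and the difference was -2.25 (SE 0.35, adjusted p 1.96e-05), with all 3 probe sets lower. Both genes are among the 3 of the 30 largest that did not pass the test among animals (adjusted p 0.806 for Meg3 and 0.594 for Rian), with Meg3 means of 0.64, 0.58 and 0.74 in mouse 1, mouse 2 and chimera 2. Dlk1, the paternally expressed ligand of the region, had a difference of -0.32 (adjusted p 0.176), and the other listed members of the region were not analysed here.

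Clones from PFs and TTFs had higher levels of the pair on average, while MEF-derived clones did not pass the test against blood-derived clones. Meg3 averaged 0.65 ± 0.56 in blood-derived clones (SD, n = 31), 2.04 ± 1.03 in PF- and TTF-derived clones (n = 11) and 0.65 ± 0.77 in MEF-derived clones (n = 6). PF- and TTF-derived clones spread from 0.49 to 3.41, so that some reached the ESC levels. Blood-derived clones were lower than those from PFs and TTFs by a difference of -1.35 with the animal as a term (adjusted p 1.96e-05), and differed from MEF-derived clones by -0.02 (adjusted p 0.962). Rian gave -1.37 (adjusted p 5.03e-05) and 0.13 (adjusted p 0.783) in these comparisons, which share the blood-derived arrays with the comparison with ESC. The 6 MEF-derived clones lay between -0.46 and 1.35 for Meg3 and between 0.22 and 2.31 for Rian, below the lowest ESC in each case.

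A further imprinted gene was lower. Mcts2, a retrogene inside an intron of H13 that is expressed from the paternal chromosome, was at -0.30 to 3.57 in the clones (median 1.02), against 3.45, 3.45, 3.48 and 3.46 in ESC. In 30 of 31 clones it was below every ESC, and 1 granulocyte-derived clone was above them. The difference of -2.29 (SE 0.44, adjusted p 0.000252) was -2.67 and -2.70 in mouse 1 and mouse 2 and -1.33 in chimera 2. Mcts2 averaged 3.80 ± 0.22 in PF- and TTF-derived clones and 3.48 ± 0.12 in MEF-derived clones, and blood-derived clones were lower than both (adjusted p 1.70e-11 and 2.72e-06). The probe set used for H13, which encodes signal peptide peptidase, was higher by 0.49 (adjusted p 0.00051), but only 3 of its 5 probe sets had that sign and their mean gave -0.09. Over 30 measured imprinted genes outside the Dlk1-Dio3 region 5 were higher (16.7%, beside 13.3% of all genes) and 4 lower (13.3%, beside 9.89%). Their median difference was 0.04, close to that of all genes, and with the animal block 2 were higher and 1 lower.

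**Figure D2:**
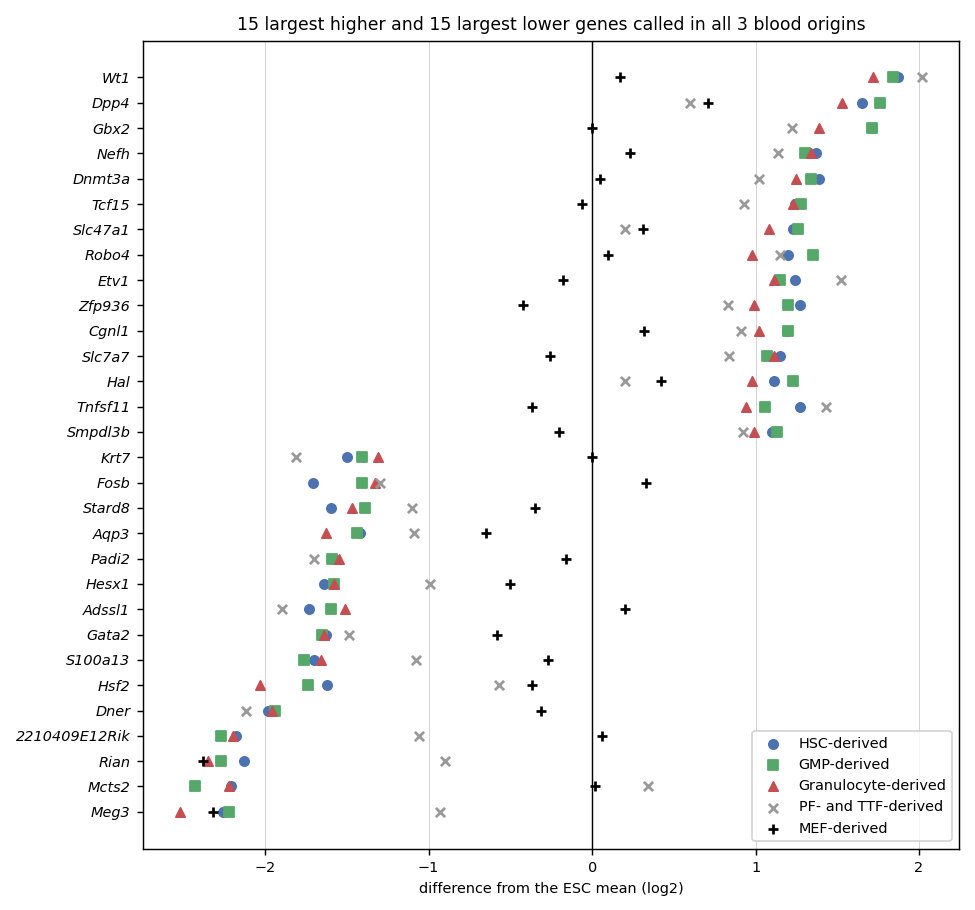
Difference from the ESC mean (x axis, log2) for the 15 genes with the largest higher and the 15 with the largest lower difference among genes called the same way in all 3 blood origins, by origin of the iPSC. The genes were chosen for calls in all 3 blood origins, so that the closeness of those origins is no finding, and the MEF-derived mean is within 0.5 of the ESC mean for 24 of the 30 genes, Meg3 and Rian not among them.

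The other genes with large losses belong to several kinds. Dner, a Notch ligand of neurons, was at -1.23 to 0.36 in the clones (median -0.24), against 0.80, 2.23, 2.32 and 1.14 in ESC. All 31 clones were below every ESC, though ESC-1 and ESC-4 were less than 1 log2 unit above the highest clone, and the difference was -1.96 (SE 0.23, adjusted p 4.04e-07). S100a13, a calcium-binding protein, was at -0.71 to 0.37 in the clones (median -0.27), against 1.51, 1.80, 2.00 and 0.57 in ESC. Again the ranges did not overlap, with a difference of -1.71 (SE 0.19, adjusted p 1.00e-07). The same held for the water and glycerol channel Aqp3 (-1.50, adjusted p 4.83e-08), for Padi2, which converts arginine in proteins to citrulline (-1.57, adjusted p 4.73e-05), and for Hesx1, a homeobox repressor of the early forebrain (-1.60, adjusted p 8.53e-05). Adssl1, the muscle form of adenylosuccinate synthase, fell by 1.62, and Stard8 by 1.49, with 30 of 31 clones below every ESC for each.

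In 2 large losses the animals differed most. 2210409E12Rik, a transcript with no role assigned here, was at -1.97 to 1.70 in the clones (median -1.40), against 2.00, 1.14, 1.12 and 1.59 in ESC. Its means were -1.40 in mouse 1, -1.64 in mouse 2 and 1.12 in chimera 2, so that the difference of -2.22 (adjusted p 0.00817) was -2.86 and -3.11 in the first pair of animals and -0.34 in chimera 2, where it was not called. Hsf2, a heat shock transcription factor, had a difference of -1.80 (adjusted p 0.00761), with -1.64 in mouse 1, -2.84 in mouse 2 and -0.67 in chimera 2.

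The largest gain among genes called in all 3 blood origins was in Wt1, a zinc-finger transcription factor of kidney and gonad. It was at -0.94 to 0.63 in the clones (median -0.24), against -0.46, -2.71, -2.67 and -2.57 in ESC. ESC-1 stood inside the range of the clones and the other 3 ESC far below it, and the difference was 1.81 (SE 0.24, adjusted p 3.01e-06). Dpp4, a peptidase of the cell surface, was at 1.48 to 3.47 in the clones (median 3.19), against 0.84, 0.87, 0.94 and 2.35 in ESC. Here ESC-4 overlapped with clones, 23 of which were above it, and the difference was 1.65 (SE 0.31, adjusted p 0.000183), or 0.82 in chimera 2. Of the 2 probe sets of Dpp4 only 1 was called, and the other gave 0.24. Nefh, the heavy neurofilament subunit, was at 0.80 to 1.44 in the clones (median 1.07), against 0.03, -0.73, -0.76 and 0.44 in ESC, without overlap and with a difference of 1.34 (SE 0.14, adjusted p 4.83e-08).

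Apart from Gbx2, Dnmt3a and Tcf15, described with their groups, the other gains among the 15 largest were between 1.07 and 1.19 and included genes of transport and metabolism. The drug exporter Slc47a1 (1.19, adjusted p 5.58e-05), the basic amino acid transporter Slc7a7 (1.11, adjusted p 1.96e-05), the histidine-degrading enzyme Hal (1.10, adjusted p 0.000505) and the sphingolipid-related phosphodiesterase Smpdl3b (1.07, adjusted p 0.0011) rose. So did the endothelial guidance receptor Robo4 (1.18), the junction protein Cgnl1 (1.14), the zinc-finger gene Zfp936 (1.15), the ETS factor Etv1 (1.17) and the cytokine gene Tnfsf11 (1.09). In chimera 2 these last differences were smaller, at 0.54, 0.58, 0.49, 0.67 and 0.73, and Zfp936, Etv1 and Tnfsf11 were not called within that animal. Only 1 of 3 probe sets of Cgnl1 and 1 of 2 of Tnfsf11 were called, with smallest differences of 0.20 and 0.26. Robo4 and Slc47a1 had low values on both sides. Robo4 lay at -2.77 to -1.13 in the clones, against -3.47 to -2.69 in ESC, and Slc47a1 at -1.79 to -0.22, against -2.66 to -1.64 in ESC. Of the 30 largest genes 12 had all 31 clones outside the ESC range, and 27 differed among animals.

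Of 11 measured DNA methylation genes 7 were higher (63.6%, beside 13.3% of all genes) and 2 lower, with a median of 0.30 beside 0.03 for all genes. With the animal block 6 were higher and 0 lower. Dnmt3a, one of the enzymes that set new DNA methylation, was at 4.95 to 5.33 in HSC-derived, 4.93 to 5.30 in GMP-derived and 4.64 to 5.35 in granulocyte-derived clones, against 3.95, 3.47, 3.53 and 4.19 in ESC. Every clone was above every ESC, at a difference of 1.32 (SE 0.10, adjusted p 4.48e-11, the smallest of all genes), or 2.50-fold, and all 5 probe sets were called higher, by 0.33 to 1.38. Dnmt3l, its inactive cofactor, was at 3.70 to 4.54 in the clones (median 4.39), against 3.54, 3.46, 3.48 and 4.19 in ESC. ESC-4 stood inside the range of the clones, and the difference was 0.63 (SE 0.12, adjusted p 0.000201), or 0.36 in chimera 2, where it was not called. Mbd1, a reader of methylated DNA, rose by 0.49 on the probe set used, while only 3 of its 5 probe sets had that sign. Mbd4, a repair glycosylase, had a difference of -0.40 (adjusted p 0.0322), which was not called with animal as a random block (adjusted p 0.372) or without ESC-2, ESC-3 or ESC-4. Dnmt3a averaged 4.81 ± 0.12 in PF- and TTF-derived clones and 3.84 ± 0.55 in MEF-derived clones, and blood-derived clones were 0.24 and 1.27 above these (adjusted p 2.19e-07 and 1.31e-10).

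Of 27 measured genes of the pluripotency network 9 were lower (33.3%, beside 9.89% of all genes) and 4 higher (14.8%, close to the 13.3% of all genes), with a median of -0.14. With the animal block 3 were lower and 2 higher. Tfcp2l1, a Stat3 target of the naive state, was at 2.80 to 3.55 in the clones (median 3.20), against 3.51, 3.88, 3.82 and 3.79 in ESC, and 30 of 31 clones were below every ESC (-0.58, adjusted p 2.10e-05). Dppa3, a maternal factor also known as Stella, was lower by 0.64 (adjusted p 0.000997), with ESC-1 at 3.12 inside the clones' range of 2.66 to 3.73 and the other ESC at 3.91 to 4.01. Dppa2, a chromatin-bound partner in early embryos, was higher, by 0.63 (adjusted p 0.00031). Klf4, a gene of the cassette, gave -0.26 (adjusted p 0.0196), with 30 of 31 clones below every ESC, but was not called with the animal block (adjusted p 0.197) or without ESC-2, ESC-3 or ESC-4. Klf5 gave -0.70 (adjusted p 0.0364) and was not called when any 1 ESC was left out. Myc, also in the cassette, was at 0.97 to 2.99 in the clones (median 1.59), against 1.96, 0.66, 0.62 and 0.62 in ESC. ESC-1 lay among the clones, the difference was 0.87 (adjusted p 0.049), it was 1.64 in mouse 1 against 0.48 and 0.44 in mouse 2 and chimera 2, and the call was lost with the animal block and without ESC-2, ESC-3 or ESC-4. Whether these probe sets also read cassette transcripts was not tested.

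Of 14 measured genes of epiblast priming 6 were higher (42.9%, beside 13.3% of all genes) and 2 lower, at a median of 0.07. With the animal block 4 were higher and 1 lower, and within mouse 2 alone 3 were higher and 3 lower, beside 18.4% and 14.1% of all genes. Tcf15, a helix-loop-helix factor of primed ESC, was at 1.07 to 1.90 in the clones (median 1.52), against 0.96, 0.07, -0.10 and 0.13 in ESC. No clone overlapped with ESC, although ESC-1 came close to the lowest clone, and the difference was 1.25 (SE 0.12, adjusted p 1.44e-08). Lef1, the nuclear partner of beta-catenin, rose by 0.78 (adjusted p 9.43e-05), and Pou3f1, a POU factor of the epiblast, by 0.75 (adjusted p 0.00604), with ESC-1 at 2.70 inside the clones' range of 2.02 to 3.35. Cldn6, a tight junction claudin of the embryonic epithelium, fell by 0.93 (adjusted p 0.00226).

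Of 16 LIF and Stat3 genes 7 were lower (43.8%, beside 9.89% of all genes) and 1 higher, and 4 were lower with the animal block. Socs3, the feedback inhibitor of the pathway, fell by 0.45 (adjusted p 0.0005), with clones at 0.61 to 1.24, against 1.79, 1.52, 1.46 and 1.07 in ESC. The 1 higher gene was Gbx2, a homeobox factor known as a Stat3 target in mouse ESC, at -0.17 to 2.23 in the clones (median 1.53), against 0.53, -0.54, -0.80 and -0.04 in ESC. The lowest clones were those of chimera 2, which overlapped with ESC, and the difference of 1.60 (SE 0.34, adjusted p 0.000748) was 2.26 in mouse 1, 1.69 in mouse 2 and 0.74 in chimera 2. Of 13 genes of FGF and ERK feedback 4 were lower (30.8%, beside 9.89% of all genes) and 2 higher (15.4%, beside 13.3%), and 1 was lower with the animal block. Some genes are in more than 1 list, so the counts of lists are not independent. Klf4 and Tfcp2l1 are in the LIF and the pluripotency lists. Junb, in the LIF list, and Egr1, in the FGF list, are also in the immediate early list. Dusp6, the ERK phosphatase, was at 2.53 to 3.50 in the clones, against 3.86, 3.85, 3.64 and 3.53 in ESC, all clones below every ESC (-0.56, adjusted p 0.00366), and it was not called with the animal block (adjusted p 0.0849). Of 14 Nodal and activin genes 2 were higher (14.3%, close to the share of all genes) and 0 with the animal block, among them the inhibitor Lefty1 (0.60, adjusted p 0.00272), whose call was lost with the animal block (adjusted p 0.0909), without ESC-2 and within mouse 2.

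**Figure D3:**
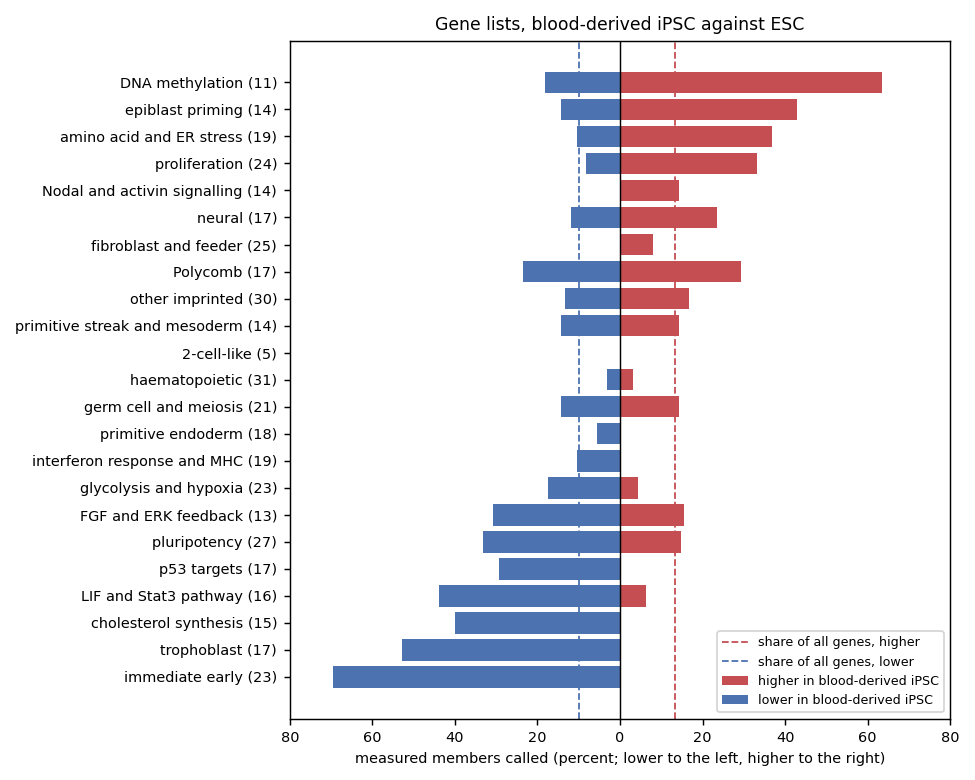
Percent of the measured members of each list (number in brackets) called higher (right) or lower (left) in blood-derived iPSC than in ESC, for lists with at least 5 measured members. Dashed lines give the shares of all genes, 13.3% higher and 9.89% lower, and immediate early and trophoblast genes reach furthest to the left (69.6% and 52.9%), DNA methylation genes furthest to the right (63.6%).

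Immediate early genes were lower as a group. Of 23 measured members 16 were lower (69.6%, beside 9.89% of all genes) and 0 higher, at a median of -0.67, 15 of them in all 3 blood origins and 15 also with animal as a random block. None was called with 1 mean per animal. Fosb, a partner of Jun in the AP-1 factor, was at -0.61 to 1.52 in the clones (median 0.38), against 1.84, 1.92, 1.86 and 1.71 in ESC. No clone reached an ESC, at a difference of -1.48 (SE 0.25, adjusted p 6.34e-05). Egr2, a zinc-finger factor induced through the serum response factor, was at -0.96 to 0.70 in the clones (median -0.12), against 1.48, 1.20, 1.07 and 1.05 in ESC, again without overlap (-1.38, SE 0.22, adjusted p 3.42e-05). Jun was at 0.58 to 2.11 in the clones (median 1.31), against 2.47, 2.57, 2.72 and 2.14 in ESC (-1.13, adjusted p 4.30e-05), and Egr1 at 3.89 to 4.50 (median 4.17), against 4.91, 4.89, 4.79 and 4.78 in ESC (-0.67, SE 0.07, adjusted p 4.83e-08). The ranges did not overlap for either gene.

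The same shift covered feedback and stress members of the list. Gadd45b, a stress-induced growth regulator, had a difference of -1.26 (adjusted p 0.000652), Atf3 of -0.90 (adjusted p 0.000718) and Junb of -0.54 (adjusted p 2.46e-05). Dusp1, a phosphatase of MAP kinases, was at 4.19 to 4.90 in the clones, against 5.17, 5.38, 5.26 and 5.20 in ESC (-0.69, adjusted p 2.10e-05). Btg2, an antiproliferative gene, was at 0.32 to 1.26, against 1.46, 1.66, 1.55 and 1.30 in ESC (-0.75, adjusted p 0.000117), and Maff, a small Maf factor, at 0.36 to 1.64, against 2.20, 1.71, 1.70 and 1.69 in ESC (-0.89, adjusted p 0.000718). All clones were below every ESC for these 3 genes, which were chosen after their values were seen, for the motifs in their promoters.

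Across sets of iPSC the median of the 23 genes relative to the ESC mean was -0.66 in mouse 1, -0.84 in mouse 2, -0.45 in chimera 2, -0.46 in PF- and TTF-derived and 0.00 in MEF-derived clones. Members below the ESC mean numbered 19, 20, 19, 19 and 11. Fosb averaged 0.54 ± 0.67 in PF- and TTF-derived clones and 2.17 ± 0.53 in MEF-derived clones, and blood-derived clones did not pass the test against the first set (-0.13, adjusted p 0.412) and were lower than the second (-1.81, adjusted p 4.61e-08). Of the 23 genes, 16 were lower in blood-derived than in MEF-derived clones, where 19.2% of all genes were lower, and 11 were lower than in PF- and TTF-derived clones, where 21.6% were. The sources used here do not give harvest days, handling times or array batches, and their part in these differences was not tested.

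**Figure D4:**
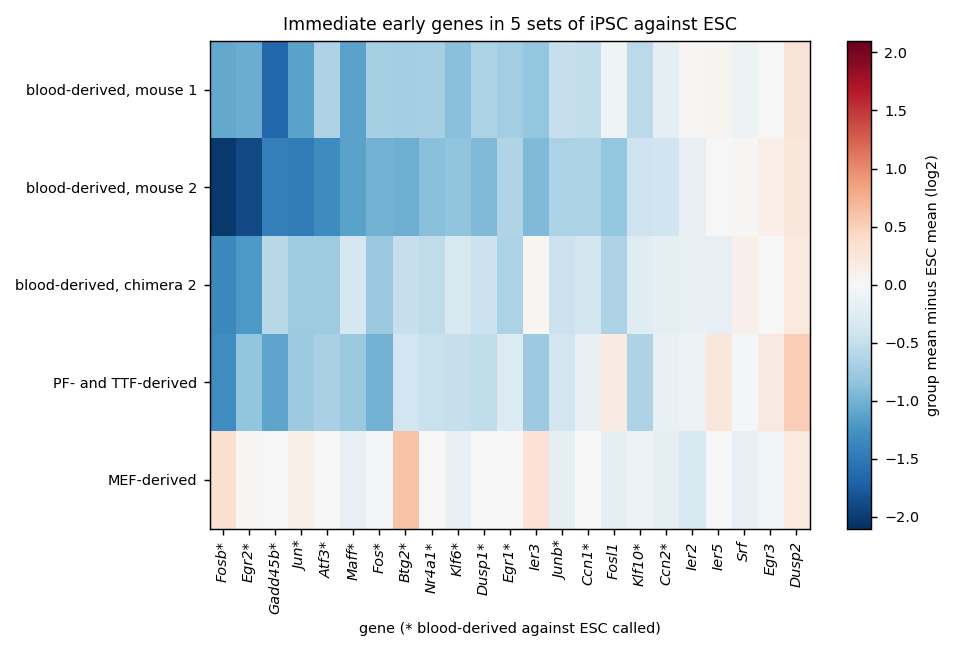
Mean of 5 sets of iPSC minus the ESC mean (colour, log2) for the 23 measured immediate early genes, ordered by the difference between blood-derived iPSC and ESC; asterisks mark genes called between all blood-derived iPSC and ESC. The median is -0.66, -0.84 and -0.45 in the rows of the 3 animals, -0.46 in PF- and TTF-derived clones and 0.00 in MEF-derived clones.

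Promoter windows from RefSeq (GRCm38.p6) were searched for 2 short motifs because immediate early genes are known to be induced through them: the CArG box, bound by the serum response factor, and the cyclic AMP response element TGACGTCA, bound by CREB. The window was the 250 bases before each start site, on both strands, and 17 of the 23 genes had one. The CArG box was found in Egr2 and Srf, and in 1.62% of all 27025 genes with a window. Srf itself was not called (adjusted p 0.962), with clones at 1.68 to 2.22, against 1.66 to 2.44 in ESC. The cyclic AMP response element was found in Dusp1, Btg2 and Maff, and in 1.77% of all genes. The motifs do not overlap in these windows. Stretches of 70 bases are shown 5′ to 3′ on the gene's strand for 4 genes that were lower in every clone, with the motif in capitals. They lie at chr10:67537464-67537533 (plus strand, Egr2), chr17:26508577-26508646 (minus strand, Dusp1), chr1:134079283-134079352 (minus strand, Btg2) and chr15:79347450-79347519 (plus strand, Maff), upstream of the start site in each case. A match describes these letters and does not show binding.
Egr2: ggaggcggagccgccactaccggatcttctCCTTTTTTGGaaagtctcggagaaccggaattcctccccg
Dusp1: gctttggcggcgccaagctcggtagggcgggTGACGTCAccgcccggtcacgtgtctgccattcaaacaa
Btg2: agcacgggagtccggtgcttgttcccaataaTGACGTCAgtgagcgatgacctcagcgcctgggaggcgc
Maff: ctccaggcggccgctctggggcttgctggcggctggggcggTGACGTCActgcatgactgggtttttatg

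Of 17 measured trophoblast genes 9 were lower (52.9%, beside 9.89% of all genes), 0 were higher and 8 did not pass, at a median of -0.39. With the animal as a random block 4 were called lower, and 5 were without ESC-2 or without ESC-3. Gata2, a zinc-finger factor of trophoblast and of blood progenitors, was at -0.92 to -0.20 in the clones (median -0.60), against 0.10, 1.92, 1.86 and 0.33 in ESC. Clones did not overlap with ESC, although ESC-1 and ESC-4 were close to them and ESC-2 and ESC-3 far above, and the difference was -1.64 (SE 0.18, adjusted p 6.45e-08). Krt7, an epithelial keratin, was at -1.23 to 0.48, against 0.38, 1.65, 1.65 and 0.83 in ESC (-1.41, adjusted p 3.42e-05). Krt19 and Krt18 had differences of -1.24 and -0.60 (adjusted p 0.0108 and 0.0464), which were -0.27 and -0.13 in chimera 2 and were not called without ESC-2 or without ESC-3, nor was Krt18 without ESC-1, with the animal block (adjusted p 0.209) or after quantile normalization. Of the lineage factors Cdx2, Elf5, Eomes, Gata3 and Hand1, only Eomes was called (-0.45, adjusted p 0.0264, or 0.284 with the animal block), with ESC-1 at 0.77 and the other ESC at -0.58 to -0.44. Cdx2 lay at -1.92 to -0.52 in the clones, against -0.27 in ESC-1 and -1.53 to -1.46 in the other ESC. Elf5 lay at -3.65 to -2.85 in the clones, against -3.36 to -2.97 in ESC.

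Other lineages moved less as groups, beside 13.3% of all genes called higher and 9.89% lower. Of 18 primitive endoderm genes 1 was lower and 0 higher, and Gata4, which defines the lineage, lay at -2.58 to -1.71 in the clones, against -2.45 to -1.90 in ESC. Of 14 genes of primitive streak and mesoderm 2 were higher, Wt1 and Mesp2 (0.29, adjusted p 0.261 with the animal block), and 2 lower. Of 17 neural genes 4 were higher (23.5%), among them Nefh and the neuronal tubulin Tubb3 (1.02, adjusted p 0.000354, not called within chimera 2), and 2 lower (11.8%), Dner and Hesx1. Of 5 genes of the 2-cell-like state 0 were called. Of 21 germ cell and meiosis genes 3 were higher and 3 lower (14.3% each). The meiotic cohesin Stag3 fell by 0.92 (adjusted p 0.000131) and Sycp3, of the synaptonemal complex, by 0.64 (adjusted p 0.0017), while Stra8, the inducer of meiosis, rose by 0.62 (adjusted p 0.000792).

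Stress, growth and metabolic genes shifted by less than 2-fold for the most part. Of 17 p53 targets 5 were lower (29.4%, beside 9.89% of all genes) and 0 higher, at a median of -0.21, and 1 was lower with the animal block. Cdkn1a, the cell cycle inhibitor p21, was at 2.41 to 2.91 in the clones (median 2.68), against 3.02, 3.35, 3.33 and 3.12 in ESC, without overlap (-0.52, SE 0.07, adjusted p 1.42e-06). The other called p53 targets named by the rule, Perp, Pmaip1 and Trp53inp1, had differences of -0.47, -0.31 and -0.21 and were not called with the animal block, nor Perp and Trp53inp1 without ESC-2 or without ESC-3. Of 24 proliferation genes 8 were higher (33.3%, beside 13.3% of all genes) and 2 lower (8.33%, beside 9.89%). The list also holds cell cycle inhibitors, of which Cdkn2a was among the higher (0.34) and Cdkn1b among the lower genes (-0.55). Cyclin E1 (Ccne1) was higher by 0.33 (adjusted p 0.000181), and only 1 of the 24 was called with the animal block.

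Of 19 genes of amino acid supply and ER stress 7 were higher (36.8%, beside 13.3% of all genes) and 2 lower, and 3 were higher with the animal block. Trib3, a pseudokinase induced by stress, rose by 0.79 (adjusted p 0.00487), or 0.22 in chimera 2, where it was not called, and Aldh18a1, of proline synthesis, by 0.69 (adjusted p 4.60e-05). Ddit3, the stress factor CHOP, fell by 0.67 (adjusted p 0.000181). Of 15 genes of cholesterol synthesis 6 were lower (40.0%, beside 9.89% of all genes) and 0 higher, at a median of -0.20. They were led by Hsd17b7 (-0.40, adjusted p 0.23 with the animal block) and Sc5d (-0.39, adjusted p 9.24e-05), and only 1 was called with the animal block. Of 23 genes of glycolysis and hypoxia 4 were lower (17.4%, beside 9.89% of all genes) and 1 higher, with 0 lower under the animal block. The call of the aldolase Aldoc (-1.13, adjusted p 0.00798) was lost with the animal block (adjusted p 0.0793) and without ESC-2 or without ESC-3. Of 17 Polycomb genes 5 were higher (29.4%, beside 13.3% of all genes) and 4 lower (23.5%, beside 9.89%), and with the animal block 3 were higher and 0 lower, with the subunit Cbx2 higher by 0.44 (adjusted p 0.00012). Of 19 interferon and MHC genes 2 were lower (10.5%, close to the 9.89% of all genes), among them the membrane protein Ifitm1 (-0.66, adjusted p 0.00137, not called within chimera 2).

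Feeder fibroblast genes bear on every comparison because the cells grew on MEFs. Of 25 measured members 2 were called, both higher (8.0%, beside 13.3% of all genes), and the list's median difference was 0.21. Acta2, smooth muscle actin, gave 1.01 (adjusted p 0.012) and Postn, a matrix protein, 0.84 (adjusted p 0.0127), with 4.24 and 1.25 in ESC-1, at most 2.86 and -0.39 in the other ESC, and calls lost with the animal block and without ESC-2, ESC-3 or ESC-4. Within mouse 1 16 of the 25 genes were called higher than in ESC, beside 18.4% of all genes in that fit. Within mouse 2 5 were higher, close to the 18.4% of all genes there, and within chimera 2 0 were higher and 2 lower, beside 6.38% and 4.91%. Dcn lay at -1.81 to 0.30 in the clones, against 0.86 in ESC-1 and -1.93 to -1.21 in the other ESC, and Lum at -3.26 to -2.36, against -3.18 to -2.52 in ESC. With the list's mean per array as a covariate 2617 genes were called and 1598 shared.

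Blood-derived clones were also compared with the fibroblast-derived sets, in fits that differ in form and group size from that against ESC. Against the 11 PF- and TTF-derived clones, with animal as a term, 5870 genes (49.7%) were called, 3320 higher (28.1%) and 2550 lower (21.6%), and 23 of 25 feeder genes were lower in the blood-derived clones. With the feeder list's mean as a further term 2089 genes were called. Against the 6 MEF-derived clones of chimera 1, 4692 genes (39.7%) were called, 2428 higher (20.6%) and 2264 lower (19.2%), and animal and origin cannot be told apart there. For Wt1, blood-derived clones differed from PF- and TTF-derived clones by -0.23 (adjusted p 0.268) and from MEF-derived clones by 1.64 (adjusted p 1.86e-09), and for Gbx2 by 0.14 (adjusted p 0.409) and 1.60 (adjusted p 2.09e-05). Dner gave 0.06 (adjusted p 0.755) and -1.65 (adjusted p 5.85e-07). In these 3 genes the blood-derived level passed the test against MEF-derived clones and not against PF- and TTF-derived clones, while Mcts2 and Slc47a1 passed it against both (Slc47a1 adjusted p 1.15e-09 against PF- and TTF-derived clones and 0.000237 against MEF-derived clones).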

How the data were processed

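Total RNA from 59 mouse cell lines was hybridised to 1 Affymetrix array each, and 35 arrays entered the main comparison. The deposited values are log2 probe set signals with array means near 0 (medians of the 35 arrays -0.209 to -0.095). The base of 2 and the centring were inferred from the range of -4.827 to 6.969, and the sources used here do not give the authors' background correction, summarisation, scan dates or batches. Per the labels' protocols, biotinylated cRNA was made from total RNA. No detection call is given, so the number of arrays limits the precision and low values have no stated floor.

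Of 22626 probe sets 18003 had 1 gene in GEO's platform annotation, 287 several and 4336 none. Symbols follow GRCm38.p6 for 11788 of 11807 genes. For the 4150 genes with several probe sets, the one of highest average across the 59 arrays stood for the gene.

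Limma 3.58.1 in R 4.3.3 (lmFit, eBayes, 2-sided, Benjamini-Hochberg over all genes) fitted ESC and the 3 blood origins as 4 groups. F tests among origins and among animals used the 31 clones, each with the other factor as a term. PF- and TTF-derived clones were compared with animal as a term, MEF-derived clones without covariates. The steps were tested on simulated data. Gene lists are described by counts and medians, with no test of their own. Named genes are the 15 furthest above and the 15 furthest below ESC among genes called in all 3 origins, up to 4 called members of each of 25 lists (423 measured genes), Meg3, Rian, Dlk1, Pou5f1, Sox2, Nanog, Klf4 and Myc, and the 8 with the smallest p among origins. Not all are printed. Dusp1, Btg2, Maff, Srf, Eif2s3y, Uty and Uba1y were chosen after their values were seen. The members and lists were chosen with earlier results of these data known. Alternatives covered scaling, a filter on dim genes, probe sets, variance prior, animals, ESC clones and feeder genes.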

Additional observations from a re-analysis of the deposited data

Results flagged for a closer look

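In 107 named genes, single arrays were compared with the rest of the ESC (4 arrays) and of the granulocyte-derived clones (9 arrays) by Dixon's test. Of 214 such groups 21 held an array far from the others, 15 of them in ESC and 12 of those at ESC-1. The test's chance rate of about 1 in 20 assumes independent arrays. ESC-2 and ESC-3 were the closest pair of arrays, and many of the genes were picked by their difference from ESC. The ESC counts are therefore not weighed against that rate. ESC-1 stood above the other ESC for Wt1 (-0.46, others -2.71 to -2.57), Myc (1.96, others 0.62 to 0.66), Junb (-0.28), Pou3f1 (2.70), Hsd17b7 (-0.57), Mcm3 (4.16) and Maff (2.20). It stood below them for Hesx1 (0.59, others 1.09 to 1.19), Dppa3 (3.12), Laptm5 (0.16), Vegfa (0.77) and Cdkn1b (2.05). ESC-4 stood above the others for Dpp4 (2.35, others 0.84 to 0.94) and Dnmt3l (4.19) and below for Krt18 (3.29).

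Among granulocyte-derived clones, iPSC-43 of chimera 2 stood apart for Stard8 (-0.67, others -1.85 to -1.34), Tcf15 (1.07, others 1.41 to 1.73) and H13 (2.34). iPSC-42 of chimera 2 did so for Tbx6 (-2.69) and Cbx2 (0.52), and iPSC-17 of mouse 1 for Mbd4 (-0.89). Over the 107 genes, these flags in granulocyte-derived clones come to about 1 in 20, though genes read on the same arrays are not independent.

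For 14 of the 107 genes the means of the 3 animals spanned at least 1 log2 unit and differed in limma's F test. The range of animal means was 2.76 for 2210409E12Rik, 2.17 for Hsf2, 1.59 for Krt19, 1.53 for Gbx2, 1.37 for Mcts2, 1.26 for Hesx1 and 1.25 for Dpp4. It was 1.20 for Myc, 1.20 for Aldoc, 1.18 for Acta2, 1.11 for Smpdl3b, 1.10 for Klf5, 1.07 for Padi2 and 1.06 for Gadd45b.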

How the results depend on the processing

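The number of called genes was 2736, and it was within 1.5 times of that except for 834 with animal as a random block, 1633 with 1 mean per origin and animal, 2 with 1 mean per animal, 1333 with only clones of chimera 2, 1138 with 1 fit over all 59 arrays and 1597 with ESC-2 and ESC-3 as 1 mean. Leaving out 1 ESC clone gave 1583 to 3294. Shared genes numbered 1600 and moved further with 9 groups of origin by animal (2628), the block (446), 1 mean per origin and animal (89), only chimera 2 (215), all 59 arrays (438), ESC-2 and ESC-3 as 1 mean (770), and without mouse 1 (874), mouse 2 (834) or chimera 2 (2614). Leaving out 1 ESC clone gave 766 to 2243. The last 4 alternatives, leaving out an animal or averaging ESC-2 and ESC-3, were chosen after seeing the data. Fewer arrays went with fewer calls in some settings and with more in others, such as 3811 with only mouse 1 and 3960 without chimera 2. The part of sample number in these changes was not tested. The 5870 genes between blood-derived and PF- and TTF-derived clones became 2089 with the feeder list as a term. Every probe set on its own gave 4086 calls of 18003.

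Of 103 called genes named by the rule or chosen later, 101 lost their call with 1 mean per animal, 44 with only chimera 2, 37 with the block, 30 without ESC-3 and 28 without ESC-2. Among genes whose difference from ESC is given, reversed values were, for the uncalled Pou5f1 and Sox2 and for H13, Pou5f1 with only chimera 2 (0.13), Sox2 with only mouse 2 (0.02) and H13 with the mean of its probe sets (-0.09). No paired analysis was possible because clone numbers name lines, and ESC and blood-derived clones share no animal or number.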

Other observations

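Genes of the Y chromosome had their highest medians in mouse 2, and varied between clones within mouse 1 and chimera 2. Eif2s3y lay at -1.79 to 3.50 in clones of mouse 1, with 3 of 11 below 0, at 3.78 to 4.12 in mouse 2, with 0 of 11 below 0, and at -1.24 to 2.04 in chimera 2, with 3 of 9 below 0, against -1.64 to 1.24 in ESC, with 3 of 4 below 0. Uty reached -1.76 to -0.75 in mouse 2, against -4.35 to -1.42 in mouse 1, -4.57 to -3.07 in chimera 2 and -4.54 to -3.81 in ESC. Uba1y gave -2.59 to -1.63 in mouse 2, against -3.97 to -2.97 in mouse 1, -4.10 to -3.06 in chimera 2 and -3.75 to -3.56 in ESC. Xist was at 0.20 to 1.14 over the clones and at 0.37 to 0.86 in ESC. The difference of Eif2s3y between blood-derived clones and ESC was 2.84 (adjusted p 0.0247), and its adjusted p with animal as a random block was 0.167.

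On chromosomes 1 to 19 and X, the median over genes with a mean above 0 differed between an array and the mean of the others of its kind (blood-derived or ESC) by at most 0.094 in any of the 35 arrays.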
